A study of Homo sapiens with 6 samples.

Results

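The 37 genes described here serve the G1/S transition and DNA replication, and their expression was followed in BL-2, an established Burkitt lymphoma cell line, with and without lipopolysaccharide (LPS, a cell wall component of Gram-negative bacteria). They were chosen by name, and each was represented by its probe set with exactly 1 gene symbol in the platform annotation and the highest mean over all 6 arrays. All 37 had such a probe set, out of 19775 genes on the array. Total RNA of 3 untreated control samples and of 3 samples taken after 6 h with LPS was hybridised to Affymetrix arrays, 1 array a sample. All samples are of this single line, no genetic change is labelled, and the sources used here do not state the LPS dose. The labels number the samples and do not say if the cultures were separate; p-values therefore reflect only sample-to-sample spread, which may be technical.

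A cell copies its DNA once in each division. In G1 the origin recognition complex, CDC6 and CDT1 load the MCM2 to MCM7 helicase on DNA, and cyclin E with CDK2 then helps to start S phase, when CDC45 and the GINS complex switch the helicase on and DNA polymerases follow with the PCNA clamp. Transcription of much of this machinery is driven by E2F factors, which RB-family proteins hold back until cyclin-dependent kinases act, and Burkitt lymphoma cells, which carry an activated MYC gene, divide fast and express it at high levels.

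RefSeq promoters (build GRCh38.p14), each from 250 bases before the transcription start to 50 after it, were matched by symbol for 33 of the 37 genes. MCM4, MCM5, CCNE2 and E2F8 are named only. An E2F-type motif was taken as TTCCCGC or TTCGCGC or TTGCCGC or TTGGCGC on either strand, where matches may overlap one another. It was found in 30 of the 43 promoters listed for these genes (69.8%), against 13.0% of all 35116 promoters in the table. Counted by gene, 28 of 33 (84.8%) held it, against 15.3% of all genes and 29 of 53 other pathway genes (54.7%). In 25 genes (75.8%) a match began within 60 bases of the start, against 6.40% of all genes. The CCAAT box, read on both strands, was in 60.5% of these promoters and in 34.6% of all; on the other strand it can share letters with TTGGCGC. MCM10, CDC45, FEN1, CCNE1 and SLBP had no match to the E2F-type motif in these windows. The 120 bases just before the start are shown for 7 genes whose values are given below. They are an E2F gene itself, helicase subunits, the clamp, a chromatin remodeller and a ubiquitin ligase adaptor. Genes were taken only where these bases hold a match, so the likeness of the motif is fixed by the search. MCM7 has 3 listed promoters and PCNA 2, and not all of them held a match. The stretch shown for each is from a promoter with a match inside these 120 bases. E2F-type motifs are in capitals, and the last base is the one before the start.
E2F1: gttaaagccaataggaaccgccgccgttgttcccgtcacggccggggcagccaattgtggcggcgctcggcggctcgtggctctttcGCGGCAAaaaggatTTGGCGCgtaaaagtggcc
MCM3: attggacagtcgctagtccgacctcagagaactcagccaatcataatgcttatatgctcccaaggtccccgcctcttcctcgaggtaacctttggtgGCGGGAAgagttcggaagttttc
MCM6: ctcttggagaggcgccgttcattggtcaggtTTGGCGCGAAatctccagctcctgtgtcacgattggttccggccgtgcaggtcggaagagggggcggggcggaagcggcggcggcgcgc
MCM7: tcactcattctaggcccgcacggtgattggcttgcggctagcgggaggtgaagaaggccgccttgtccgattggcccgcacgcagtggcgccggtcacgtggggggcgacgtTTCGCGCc
PCNA: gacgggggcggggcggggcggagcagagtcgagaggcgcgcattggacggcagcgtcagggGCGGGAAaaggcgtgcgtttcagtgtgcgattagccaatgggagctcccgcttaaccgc
HELLS: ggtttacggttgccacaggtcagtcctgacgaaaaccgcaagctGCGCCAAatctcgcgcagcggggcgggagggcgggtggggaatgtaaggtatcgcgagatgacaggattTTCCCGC
DTL: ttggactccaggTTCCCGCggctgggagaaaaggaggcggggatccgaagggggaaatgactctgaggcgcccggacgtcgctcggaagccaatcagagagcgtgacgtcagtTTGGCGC
These stretches lie at chr20:33686386-33686505 on the minus strand for E2F1, chr6:52284743-52284862 on the minus strand for MCM3, chr2:135876444-135876563 on the minus strand for MCM6, chr7:100101398-100101517 on the minus strand for MCM7, chr20:5126623-5126742 on the minus strand for PCNA, chr10:94545668-94545787 on the plus strand for HELLS and chr1:212035628-212035747 on the plus strand for DTL. The 2 matches of E2F1 began 33 and 19 bases before the start, and those of HELLS 76 and 7 bases before it. In MCM6 the capitals hold a pair of overlapping matches on opposite strands, which began 89 and 86 bases before the start. One further match in MCM3 and in MCM7 crosses the start and is not in capitals. A match is a description of the letters and not a measured binding site.

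**Figure D1:**
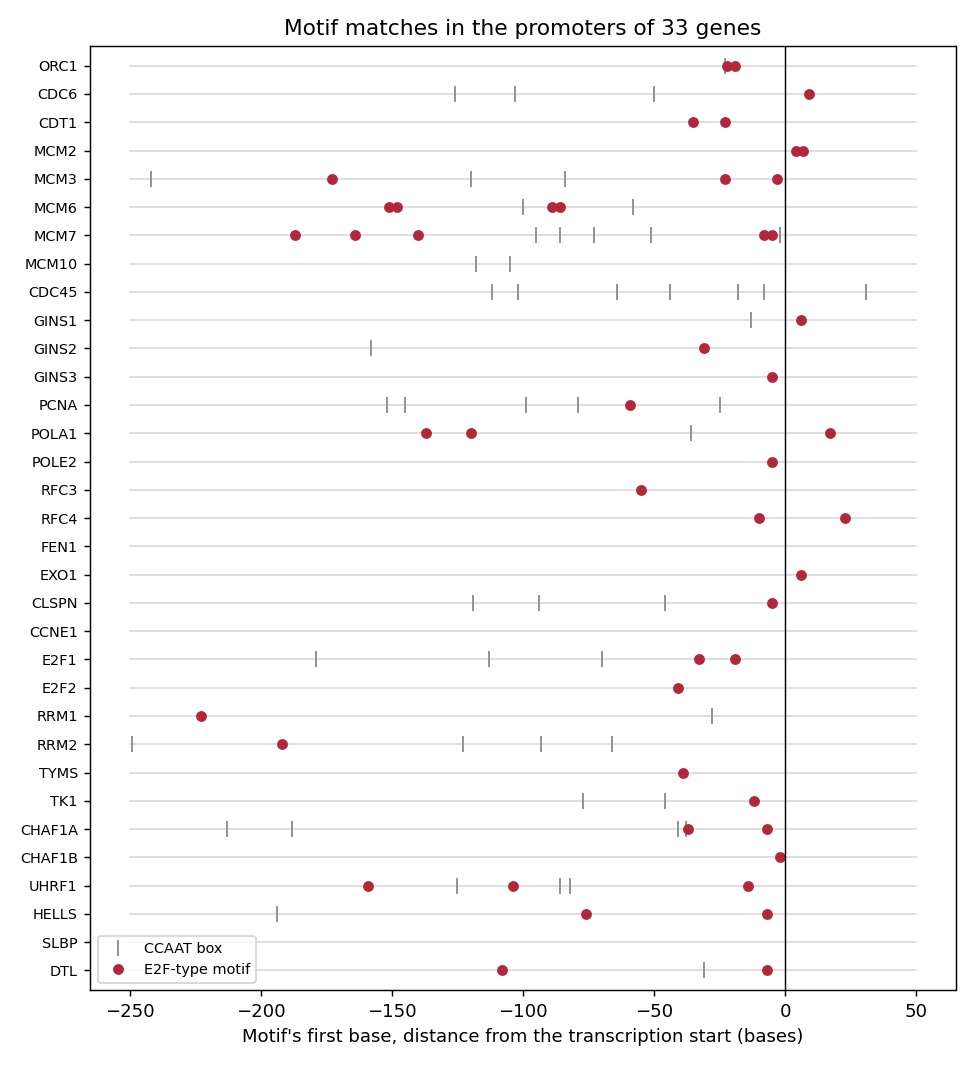
Matches to the E2F-type motif (red circles) and the CCAAT box (grey ticks) along the promoters of 33 genes; the horizontal axis is the distance of the match's first base from the transcription start in bases, and the promoters of a gene with several are drawn on 1 line. The circles gather near the start: in 25 genes one begins within 60 bases of it.

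After 6 h of LPS the measured levels of the replication genes differed from the controls by less than the test could call. None of the 37 genes passed the limma test across all probe sets (adjusted p under 0.05), where 0.389% of all genes passed, and the lowest adjusted p was 0.361, for HELLS. At an unadjusted p under 0.05 were 3 of the 37 genes (HELLS, CDC6 and MCM7), or 8.11%, against 9.56% of all genes. The differences, LPS minus control on the log2 scale, ran from -0.15 for TK1 to 0.35 for HELLS. Their median was 0.03, with 25 genes above 0, but -0.01 with 18 above 0 after quantile normalisation. Over all genes, without that normalisation, the median was 0.0016, with 10047 of 19775 above 0. For 36 of the 37 genes the 95% interval of the difference lay wholly inside a 1.5-fold change in either direction. So did the intervals of 19550 of all 19775 genes. HELLS exceeded this range slightly, with an upper bound of 0.60 or 1.52-fold. These intervals are for single genes. In RNA of whole cultures, more cells in S phase and more RNA per cell cannot be told apart.

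**Figure D2:**
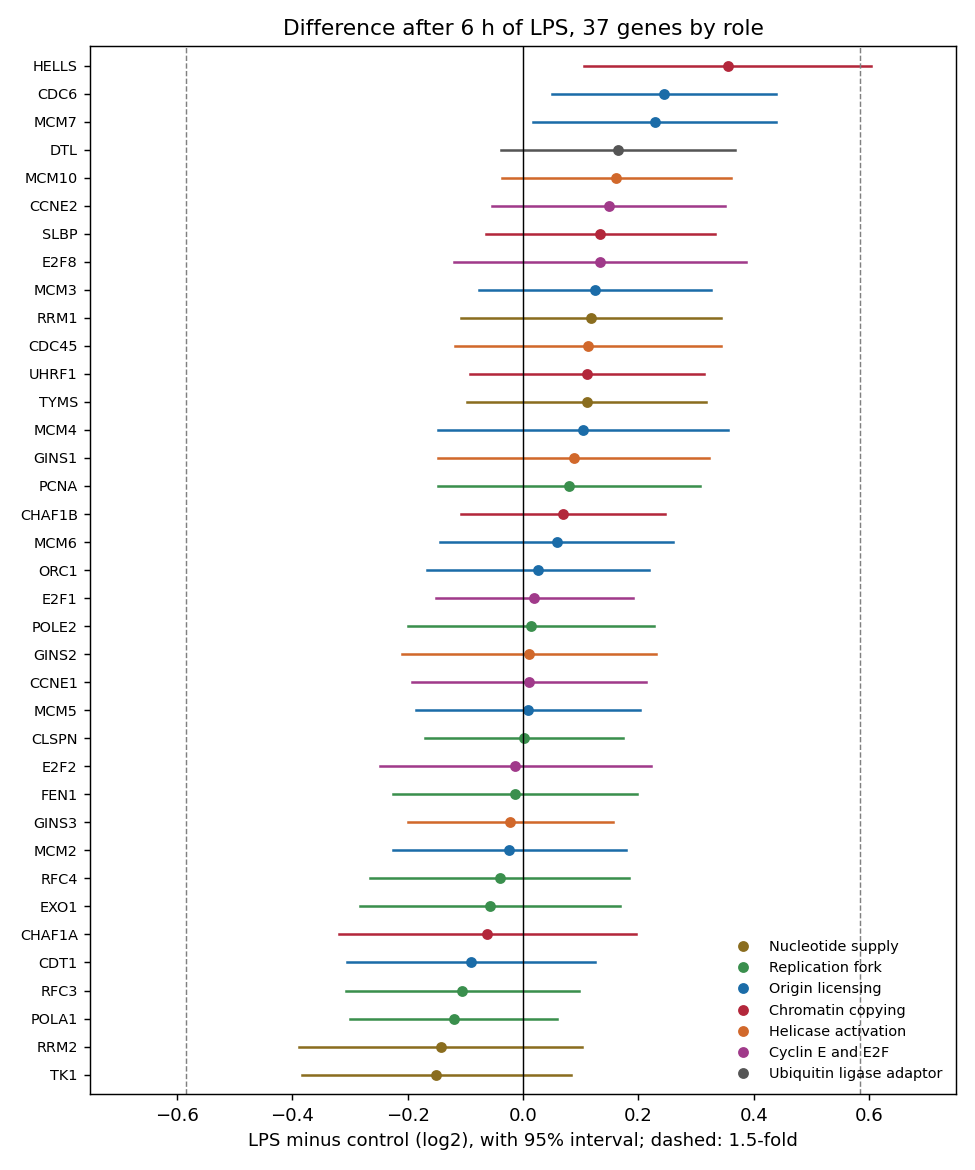
Difference between 3 LPS and 3 control arrays for each of the 37 genes, in log2 units, with the 95% interval from limma and colour by role; dashed lines mark a 1.5-fold change. All points lie between -0.15 and 0.35, and only the interval of HELLS reaches past a dashed line.

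Most of these transcripts gave bright signals, but the median standard error of their differences was 0.096, against 0.068 over all genes. By their brightest probe set 36 of the 37 genes had a mean above 8, where the array medians ran from 6.42 to 6.47, and CLSPN, the checkpoint adaptor claspin, was the dimmest at 7.30 to 7.55. Arrays correlated at 0.992 to 0.997 over all probe sets. Of 7 B cell markers 6 were measured, all with means above 8 (8.82 to 13.13 over arrays). Markers of monocytes (7 measured), T and NK cells (7), fibroblasts and epithelium (8) and erythroid cells and platelets (4) all had means at or below 8, and 0 markers of any list passed the test. The summed log2 level of the 6 B cell markers was 63.45 to 64.08 in controls and 62.77 to 63.21 after LPS, lower without overlap. CD79A, CD22 and MME each had all LPS values below all controls. Over all genes, 15.7% had groups that did not overlap in either direction. MS4A1 (-0.07), CD79B (-0.18) and PAX5 (0.31) overlapped between groups, and PAX5 was higher after LPS in the mean. The part of these marker differences in the results below was not tested. Sums of the other lists overlapped between groups, as for the monocyte markers at 43.02 to 43.39 in controls and 43.01 to 43.34 after LPS. The level of 18 hybridisation spike-in probe sets parted the arrays into set A (control 1, LPS 1 and LPS 2) and set B (control 2, control 3 and LPS 3). With array set as a block CD79A, a subunit of the B cell receptor, passed (-0.35, adjusted p = 0.0103), against -0.38 and 0.133 without the block. Values within these sets are given where they bear on a gene.

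Among the licensing factors, CDC6, the ATPase that loads the helicase, stood at 9.79, 9.57 and 9.70 in control 1 to 3 and at 9.99, 9.92 and 9.89 in LPS 1 to 3. All LPS values lay above all control values, by 0.24 in the mean (SE 0.091, 95% interval 0.05 to 0.44, limma adjusted p = 0.472, n = 3 per group). Its other probe set gave 0.20 (adjusted p = 0.634), and the difference was 0.16 in set A alone and 0.25 in set B alone. CDT1, which works with CDC6 and is destroyed in S phase, differed by -0.09 and ORC1, the largest subunit of the origin recognition complex, by 0.03, with overlapping groups. The other CDT1 probe set was at 0.04, on the other side of 0.

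None of the 6 subunits of the MCM2 to MCM7 helicase, which form a ring around DNA, passed the test. MCM7 was at 12.17, 12.05 and 11.97 in controls and 12.41, 12.21 and 12.27 after LPS. These groups did not overlap, and the difference was 0.23 (SE 0.098, adjusted p = 0.571), but the other MCM7 probe set gave 0.11 with overlap. MCM3 was at 11.24, 11.14 and 11.35 in controls and 11.41, 11.33 and 11.35 after LPS, a difference of 0.12 with overlapping values. MCM4 was at 10.97, 10.68 and 10.81 against 11.15, 10.88 and 10.74, so that LPS 3 lay below the highest control and the spread within a group exceeded the difference of 0.10. Of the other MCM4 probe sets 3 gave 0.13, 0.19 and 0.21, and the last, at 6.63 to 6.90 and so near the array medians, gave -0.08. MCM6 was at 12.31, 12.49 and 12.45 in controls and 12.45, 12.43 and 12.54 after LPS, a difference of 0.06. Its other, much dimmer probe set (7.01 to 7.40) gave 0.19 without overlap (adjusted p = 0.525). MCM5 was at 11.26, 11.22 and 11.18 against 11.30, 11.16 and 11.24. MCM2 was at 11.62, 11.74 and 11.67 against 11.65, 11.56 and 11.75. For both the groups lay over each other, with differences of 0.01 (95% interval -0.18 to 0.20) and -0.02 (95% interval -0.23 to 0.18). Over the 6 subunits the median difference was 0.08, with 5 above 0, but MCM5 turned to -0.04 after quantile normalisation.

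**Figure D3:**
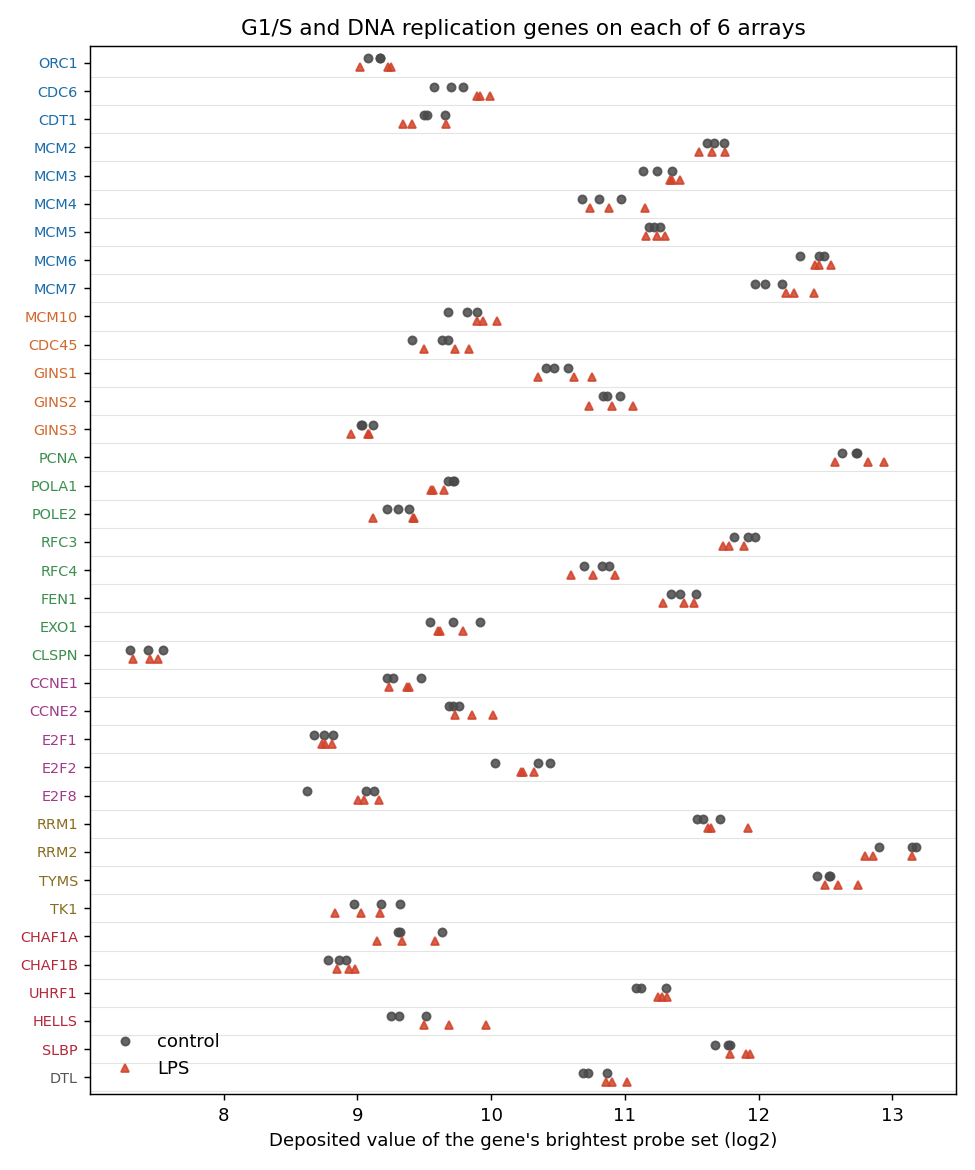
Deposited log2 value of each gene's brightest probe set on the 3 control arrays (grey circles) and the 3 LPS arrays (red triangles), with gene names coloured by role as in the plot of differences. Circles and triangles intermix for 33 genes; CDC6, MCM7 and SLBP have all triangles to the right and POLA1 has all to the left.

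None of the factors that switch the helicase on passed the test. MCM10, which helps to activate the loaded helicase, was at 9.90, 9.68 and 9.82 in controls and 10.04, 9.89 and 9.94 after LPS. Its difference of 0.16 (adjusted p = 0.720) came from groups that touched, with LPS 2 just under control 1, and its 2 other probe sets gave 0.13 and 0.16, the latter without overlap. CDC45, a part of the active helicase, differed by 0.11, and the GINS subunits GINS1, GINS2 and GINS3 by 0.09, 0.01 and -0.02. All 4 had overlapping groups, and GINS2 turned to -0.03 after quantile normalisation. DTL, the ubiquitin ligase adaptor that directs CDT1 to destruction during S phase, was at 10.87, 10.73 and 10.69 against 11.02, 10.86 and 10.90. The groups overlapped by LPS 2 against control 1, with a difference of 0.17 (adjusted p = 0.719) and 0.11 by the other probe set.

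At the replication fork, PCNA, the sliding clamp that holds polymerases on DNA, was at 12.62, 12.74 and 12.73 in controls and 12.82, 12.57 and 12.94 after LPS. The LPS arrays spanned the controls on both sides, with a difference of 0.08 (SE 0.11, 95% interval -0.15 to 0.31). POLA1, the catalytic subunit of the polymerase that makes primers, was at 9.72, 9.72 and 9.68 against 9.55, 9.56 and 9.65. It was the only gene of the 37 with all LPS values below all controls, at -0.12 (adjusted p = 0.786), with -0.17 in set A alone and -0.05 in set B alone. The clamp loader subunits RFC3 and RFC4 differed by -0.10 and -0.04, the flap nuclease FEN1 by -0.01, the nuclease EXO1 by -0.06, the polymerase epsilon subunit POLE2 by 0.01 and CLSPN by 0.0020. All overlapped between groups, and a second bright RFC3 probe set gave 0.04, on the other side of 0. RFC4, FEN1 and EXO1 turned to 0.03, 0.03 and 0.02 with array set as a block, as CLSPN did to -0.02.

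Among the regulators at the head of the programme, E2F1 and cyclin E1 had differences near 0. E2F1, an activating E2F factor, was at 8.82, 8.68 and 8.75 in controls and 8.76, 8.81 and 8.73 after LPS. The groups interleaved, and the difference was 0.02 (SE 0.080, 95% interval -0.15 to 0.19), turning to -0.01 after quantile normalisation and 0.15 by the other probe set. CCNE1, cyclin E1, was at 9.26, 9.22 and 9.48 against 9.39, 9.23 and 9.37, a difference of 0.01 (95% interval -0.19 to 0.21) that was -0.03 after quantile normalisation. Its other probe set, at 6.06 to 6.27, lay below the array medians and says nothing on the gene. CCNE2, cyclin E2, was at 9.71, 9.68 and 9.76 against 10.02, 9.73 and 9.86. Its LPS 2 value lay among the controls, and the difference was 0.15 (adjusted p = 0.756), but 0.04 by the other probe set. E2F2, another activator, differed by -0.01. E2F8, a repressor of E2F targets late in the cycle, differed by 0.13, a value that rests on control 1 (8.62, against 9.06 and 9.12 in the other controls): it was -0.02 without that array, 0.46 in set A alone and -0.05 in set B alone.

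Enzymes of nucleotide supply pointed both ways. RRM2, the regulated subunit of ribonucleotide reductase, was at 12.90, 13.15 and 13.18 in controls and 12.86, 12.79 and 13.15 after LPS. Its brightest probe set gave -0.14 with overlap (adjusted p = 0.820) and the other probe set 0.12 without overlap (adjusted p = 0.806). The gene therefore has no settled direction. TK1, thymidine kinase of S phase, was at 8.98, 9.32 and 9.17 against 8.83, 9.02 and 9.17, a difference of -0.15 (adjusted p = 0.794), with -0.16 by the other probe set. By the brightest probe sets the groups overlapped, and set B minus set A was 0.31 for RRM2 and 0.28 for TK1, larger in size than the LPS differences. By the other probe sets it was 0.02 for RRM2, smaller than its LPS difference, and 0.24 for TK1. Set A holds 2 LPS arrays and set B 1, so these set differences include a part of the LPS difference. With a block for array set the LPS differences of the brightest probe sets were -0.05 for RRM2 and -0.07 for TK1. The partner subunit RRM1 differed by 0.12 and TYMS, which makes thymidylate, by 0.11, both with overlap.

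Genes that copy chromatin behind the fork held the largest single difference. HELLS, a chromatin remodeller needed for DNA methylation, was at 9.51, 9.25 and 9.31 in controls and 9.68, 9.96 and 9.50 after LPS. LPS 3 lay just under control 1, and the difference was 0.35 (SE 0.12, 95% interval 0.11 to 0.60, adjusted p = 0.361). It varied between probe sets, at -0.06, 0.19, 0.14 and 0.12 for the other 4, the last at the level of the array medians (6.30 to 6.55), and the mean over all 5 gave 0.15. It was 0.23 without LPS 2, 0.46 without LPS 3 and 0.26 with array set as a block (adjusted p = 0.152). Set B minus set A was -0.36 for HELLS, which includes a part of its LPS difference. UHRF1, which recruits DNA methyltransferase to new DNA, was at 11.08, 11.12 and 11.30 in controls and 11.32, 11.25 and 11.28 after LPS. Control 3 lay among the LPS arrays, and the difference was 0.11 (adjusted p = 0.837). SLBP, which binds the stem-loop of histone messenger RNA, was at 11.68, 11.77 and 11.78 against 11.90, 11.79 and 11.94. The groups parted by a narrow margin between control 3 and LPS 2, at 0.13 (adjusted p = 0.781). The CAF-1 histone chaperone subunits CHAF1A and CHAF1B differed by -0.06 and 0.07 with overlap, and of the other CHAF1A probe sets the 2 well above the array medians gave 0.08 and 0.04.

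In all, 4 of the 37 genes (10.8%) had groups that did not overlap, 3 of them higher after LPS, against 15.7% of all genes. Of the 37 genes 23 had several probe sets, which gave 75 in all. None of the 75 passed, where 0.264% of all probe sets did, and 4 (5.33%) had an unadjusted p under 0.05 against 8.08% of all probe sets. With array set as a block in the fit, 0 of the 37 genes passed against 2.02% of all genes, with a median difference of 0.06. In that fit 9 of the 37 genes (24.3%) had an unadjusted p under 0.05, against 12.4% of all genes, where without the block it was 3. These were CDC6, MCM7, CDC45, PCNA, E2F8, RRM1, TYMS, HELLS and SLBP, all above 0, with differences of 0.14 for PCNA to 0.26 for HELLS and a lowest adjusted p of 0.152. Of these only E2F8 changed sign between the sets (0.46 in set A, -0.05 in set B). Set A holds 1 control array and set B 1 LPS array, so control 1 and LPS 3 weigh most in this fit. For the 37 genes control 1 was the lowest control array (median deviation from each gene's mean -0.06) and LPS 3 the highest array of all (0.09). The median difference of the 37 genes was 0.05 in set A alone and 0.07 in set B alone, against 0.0025 and -0.0073 over all genes. Of the 37 genes 22 had the same sign in both sets, 18 of them above 0. The share of all genes with the same sign in both was not computed.

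The 37 genes varied together more between arrays of a group than between the groups. As deviations from each gene's mean over the 6 arrays, their medians were -0.06, -0.03 and 0.01 in control 1 to 3 and 0.07, -0.07 and 0.09 in LPS 1 to 3. LPS 2 was thus the lowest array of all and LPS 3 the highest. LPS 2 was the lowest LPS array for 29 of the 37 genes, and 33 genes lay above their own mean in LPS 3 against 9 in LPS 2. Over all genes the same medians stayed between -0.01 and 0.01. Genes of like brightness were not compared: 36 of the 37 genes had a mean above 8, where the array medians were 6.42 to 6.47. The median LPS difference of 0.03 varied with single arrays. It was 0.10 without LPS 2, 0.08 without control 3, 0.04 without control 2 and 0.03 without control 1. Without LPS 3 it was 0.01, and without LPS 1 it was -0.00065. The 8 genes that were not lowest in LPS 2 among the LPS arrays were CDC6, MCM4, POLA1, RFC3, EXO1, E2F1, TK1 and HELLS, and E2F1 and HELLS were highest there. By array set, 23 of the 37 genes were higher in set B, with a median of 0.06 for set B minus set A, all 4 nucleotide supply genes among them. Over all genes 8789 of 19775 were higher in set B, with a median of -0.01. HELLS (-0.36), MCM4 (-0.26) and CDC6 (-0.18) were lower there. All these set differences include a part of the LPS difference, as set A holds more LPS arrays than set B.

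**Figure D4:**
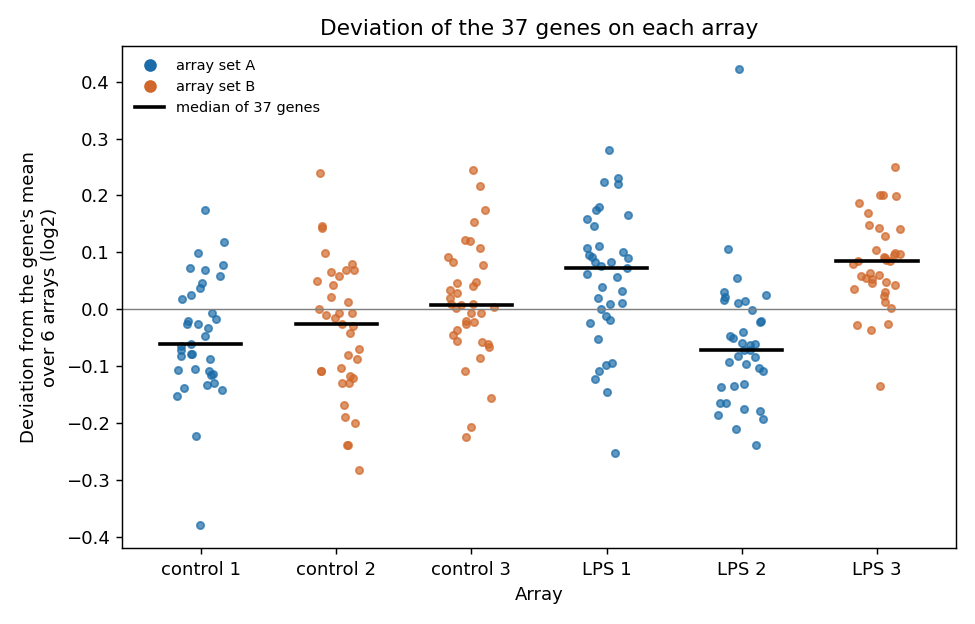
Each point is 1 of the 37 genes on 1 array, as its log2 deviation from the gene's mean over the 6 arrays, coloured by array set; bars are the medians. The bar of LPS 2 lies at -0.07 and those of LPS 1 and LPS 3 at 0.07 and 0.09; the highest point in LPS 2 is HELLS and the lowest in control 1 is E2F8.

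In the wider replication pathway only 1 gene passed the test. Of 65 further genes of licensing, fork, G1/S control, nucleotide supply and chromatin copying, 64 were measured, with a median difference of 0.02. By the test 0 rose and 1 fell, where 0.389% of all genes passed. The gene that fell was ASF1A, a chaperone that hands histones H3 and H4 to CAF-1 and HIRA. Its level was 10.40, 10.38 and 10.45 in controls and 9.89, 9.86 and 9.95 after LPS. The groups lay far apart beside their spread, with a difference of -0.51 (SE 0.086, 95% interval -0.70 to -0.33, adjusted p = 0.0247), or 0.702 of the control level, and of -0.53 in set A alone and -0.47 in set B alone. The other ASF1A probe set was also lower on all LPS arrays, at -0.24, but did not pass (adjusted p = 0.419). The call was lost without control 2 (adjusted p = 0.0949), control 3 (0.206), LPS 1 (0.152) or LPS 2 (0.179), while the difference stayed between -0.53 and -0.49. Its paralogue ASF1B differed by 0.13.

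The other pathway genes with the smallest p-values were TFDP2, RFC5 and E2F3. TFDP2, a DNA-binding partner of E2F factors, was at 11.03, 11.01 and 11.18 in controls and 10.76, 10.67 and 10.83 after LPS. All LPS values lay below all controls, at -0.32 (adjusted p = 0.286), and TFDP2 passed with array set as a block (adjusted p = 0.0469) and after quantile normalisation (adjusted p = 0.0314). Its other probe sets gave -0.21, -0.08 and 0.05. RFC5, a clamp loader subunit, was at 9.73, 9.76 and 9.80 against 10.06, 9.91 and 10.02, a difference of 0.24 (adjusted p = 0.468). E2F3, an activating E2F factor, was at 9.20, 9.12 and 9.22 against 9.40, 9.37 and 9.38, a difference of 0.20 (adjusted p = 0.524). Both had all LPS values above all controls, but other probe sets gave 0.11 and 0.08 for RFC5 and 0.15 for E2F3, all with overlap.

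**Figure D5:**
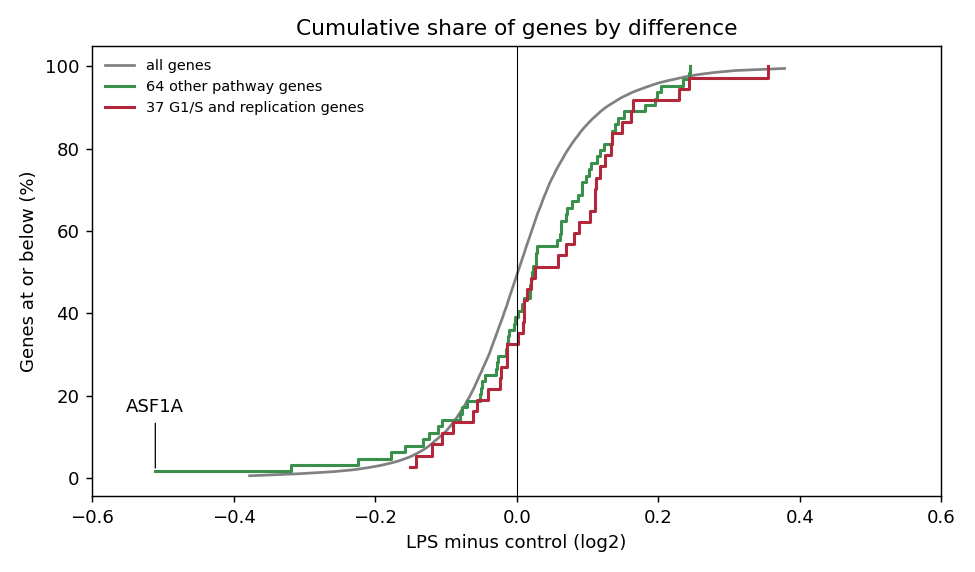
Percentage of genes at or below each LPS minus control difference (log2), for the 37 genes (red), 64 other pathway genes (green) and all genes (grey, drawn without the extreme tails). The red line runs from -0.15 to 0.35, and ASF1A at -0.51 starts the green line.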

How the data were processed

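The deposited table holds 1 value per probe set for each of 6 Affymetrix arrays; per the labels' protocols, kit-extracted RNA was labelled by in vitro transcription. The authors' values were taken as log2, inferred from their range of 5.46 to 14.81. Summarisation and normalisation: not given in the sources used here. Array number limits the precision. The table was used as deposited, less 62 Affymetrix control probe sets, leaving 54613 tested. Platform annotation named 41091 of them with 1 symbol, 1801 with several and 11721 with none. Groups came from the sample titles. In R 4.3.3, limma 3.58.1 was fitted with group as its only term and a trend of variance with intensity; tests were two-sided, p-values were adjusted by Benjamini and Hochberg's method across every probe set tested, and the threshold was 0.05. These steps were tested on simulated data. The 37 genes, the pathway and marker lists and the tests were chosen with earlier results of these data known. Values of every array are given for genes that passed, the 12 of the 37 with the smallest p, CCNE1, E2F1, PCNA and MCM2 to MCM7; of the other pathway genes, those that passed and the 4 with the smallest p were named. ASF1B, CD79A, CD22, MME, MS4A1, CD79B and PAX5 were named after their values were seen. Array sets were parted at the widest gap (0.22) in mean spike-in level. Alternatives covered blocks, normalisation, filters, variance prior, array weights, thresholds, probe set choice and leaving out each array.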

Additional observations from a re-analysis of the deposited data

How the results depend on the processing

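None of the 37 genes passed under any of the 19 alternatives run with limma, where the lowest adjusted p was 0.127 (HELLS, without control 1). Those at thresholds of 0.01 and 0.1 kept the fit with group only. Its lowest adjusted p was 0.361, so neither threshold could give a pass. The median difference of the 37 genes ran from -0.00065 to 0.10 when single arrays were left out. The replicate numbers did not clearly pair the arrays, with correlations of deviations of 0.44, -0.04 and 0.23 for replicates 1, 2 and 3. Control 1 and control 3 best matched the LPS array of the same number, and control 2 best matched LPS 3. With the replicate block 498 probe sets passed against 144 without, 0 of the 37 genes and 1 pathway gene among them. The count of probe sets was 734 with array set as a block, 292 after quantile normalisation, 309 with array weights, 47 at a threshold of 0.01, 265 at 0.1, 82 without probe sets ending in _x_at or _s_at, 86 genes by mean over probe sets, and 10 to 374 when single arrays were left out. The pathway genes passing were 2 with array set as a block and 2 after quantile normalisation, 0 at a threshold of 0.01, 0 without _x_at and _s_at probe sets, and 0 to 1 when single arrays were left out. ASF1A, without _x_at and _s_at probe sets, was represented by its dimmer probe set, at -0.24 (adjusted p = 0.445).

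Some genes changed sign, most of them with a difference close to 0, but also RRM2 (-0.14), E2F8 (0.13), MCM4 (0.10), GINS1 (0.09) and PCNA (0.08). After quantile normalisation ORC1 was -0.013, MCM5 -0.037, GINS2 -0.034, POLE2 -0.024, CLSPN -0.013, CCNE1 -0.026 and E2F1 -0.013. With array set as a block MCM2 was 0.015, RFC4 0.028, FEN1 0.033, EXO1 0.019, CLSPN -0.022, E2F1 -0.0062 and CHAF1A 0.024. Without _x_at and _s_at probe sets GINS2 was -0.011, RRM2 0.12 and CHAF1A 0.065. That CHAF1A value came from a probe set below the array medians (6.09 to 6.28), and that of GINS2 from a much dimmer probe set (control mean 7.51). By the mean over probe sets FEN1 was 0.036, CLSPN -0.032, CCNE1 -0.031 and CHAF1A 0.032. The means of CLSPN, CCNE1 and CHAF1A each took in a probe set below the array medians. With array weights CCNE1 was -0.020. Leaving out single arrays gave ranges of -0.016 to 0.10 for ORC1, -0.072 to 0.025 for MCM2, -0.010 to 0.20 for MCM4, -0.025 to 0.047 for MCM5, -0.00065 to 0.20 for GINS1, -0.071 to 0.096 for GINS2, -0.044 to 0.021 for GINS3, -0.00029 to 0.18 for PCNA and -0.037 to 0.12 for POLE2. The ranges were -0.12 to 0.042 for RFC4, -0.065 to 0.051 for FEN1, -0.15 to 0.038 for EXO1, -0.062 to 0.062 for CLSPN, -0.041 to 0.089 for CCNE1, -0.016 to 0.054 for E2F1, -0.14 to 0.071 for E2F2, -0.023 to 0.23 for E2F8 and -0.18 to 0.045 for CHAF1A. With 3 arrays a group, the median standard error of these genes was 0.096. HELLS (0.35), CDC6 (0.24) and MCM7 (0.23) had 95% intervals that excluded 0. They still did not pass (limma adjusted p = 0.361, 0.472 and 0.571). An interval that excluded 0 was therefore not enough for a pass, and differences of these sizes could be missed. The smallest difference that the adjusted test could call was not computed.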
